A study of Homo sapiens with 3 samples.

Results

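TSC22D4 encodes THG-1, and the comparison set its S264A form against the wild-type form in HaCaT keratinocytes that carry oncogenic HRAS. Every gene at 1 RPKM or more in at least 1 of the 2 THG-1 libraries was taken (RPKM are reads per kilobase of gene, scaled to library depth), which gave 12069 of the 55773 genes in the deposited table. HaCaT is a spontaneously immortalised human keratinocyte line. All 3 lines of the study carried HRas with the G12V substitution and grew in DMEM with 10% fetal bovine serum. They differed in a second transduction, with an empty vector in HaCaT-Ras (-), with wild-type THG-1 in HaCaT-Ras-THG-1 (WT), and with THG-1 S264A, in which alanine takes the place of a serine, in HaCaT-Ras-THG-1 (S264A). The labels name total RNA, Trizol extraction and a NextSeq500 sequencer. Each was a single transduced line with 1 library, and the promoter of the vector was not given in the sources used here.

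THG-1 belongs to the TSC22 family of leucine zipper proteins, whose members bind one another and the pseudokinase NRBP1. Alanine lacks the hydroxyl group of serine, to which kinases attach phosphate, so that a serine-to-alanine form serves to ask what a protein does without phosphate at that position. Keratinocytes store interleukin-1 alpha and release it on damage. The IL-1 receptor signals through MYD88, IRAK kinases and TRAF6 to the IKK complex, which frees NF-kB to turn on chemokines, cytokines, antimicrobial proteins and its own inhibitors. The title of the series places THG-1 in this pathway.

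There were no replicates, so the text holds no test and no p-value. A difference between the libraries cannot be told apart from variation between cultures or between independently transduced lines. Genes were counted as lower or higher in S264A where the log2 ratio of RPKM + 1 was at most -1 or at least 1, which is called the 2-fold rule below. Folds of single genes are plain ratios of RPKM with exact Clopper-Pearson 95% intervals from reads recovered from the RPKM steps, and these intervals cover counting error only. In bulk RNA, fewer cells that express a gene and less RNA per cell cannot be told apart.

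The depth was 12733479 reads with wild-type THG-1, 14022885 with S264A and 32055052 with empty vector, and 10761 of the 12069 genes reached 1 RPKM in both THG-1 libraries. The transgene check came first. TSC22D4 stood at 64.9 RPKM with wild type, 51.1 RPKM with S264A and 7.98 RPKM with empty vector. Both THG-1 lines were far above the empty vector, and S264A held 0.787 times the wild-type level (0.747 to 0.829). The TSC22D4 value was thus lower in the S264A library, with a log2 ratio of -0.34, or -0.36 to -0.17 over the alternative settings. The size of this difference moved with the settings and rests on 1 library a line, and its part in the results was not tested. HRAS stood at 27.8 RPKM with wild type and 22.4 RPKM with S264A. All 17 keratinocyte markers reached 1 RPKM and none passed the 2-fold rule, with KRT14 at 287 and 382 RPKM and KRT5 at 240 and 329 RPKM in wild type and S264A. Of 34 markers of immune cells, fibroblasts, melanocytes and endothelial cells, 33 were in the table and 4 reached 1 RPKM. Those 4 were CD68, FBLN1, MITF and VWF. The 10 immune markers summed to 5.58 RPKM with wild type and 2.12 RPKM with S264A, nearly all of it CD68 (5.21 and 1.70 RPKM), while 9 of them, PTPRC and CD14 included, stayed below 1 RPKM in both libraries.

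Most transcripts were close between both forms. The median log2 ratio over all 12069 genes was 0.02, and the central 90% of genes lay between -0.70 and 0.67. By ratios of RPKM + 1 there were 10407 genes (86.2%) that differed by less than 1.5-fold. By the 2-fold rule 269 genes (2.23%) were lower in S264A and 187 (1.55%) were higher, or 456 (3.78%) in all. Of these, 153 of the lower and 82 of the higher genes were at 1 RPKM or more in both libraries. On the scale of RPKM + 1 the lower side reached further, with 37 genes at least 4-fold lower against 13 at least 4-fold higher. Plain ratios of low genes are larger than on this scale. With 0.1 RPKM added in place of 1, the genes past 2-fold were 518 lower and 509 higher. The split moved with the scaling: with both libraries set to an equal sum of RPKM, 229 genes were lower and 242 higher, so that 51.4% of the different genes were higher in place of 41.0%. At the edge of the rule, HAPLN3 at 1.65 and 0.324 RPKM (-1.0008) was counted as lower and RNU1-1 at 67.0 and 33.0 RPKM (-0.999) was not. On the other edge, DSG4 (1.01) was counted as higher and SRR (0.997) was not.

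**Figure D1:**
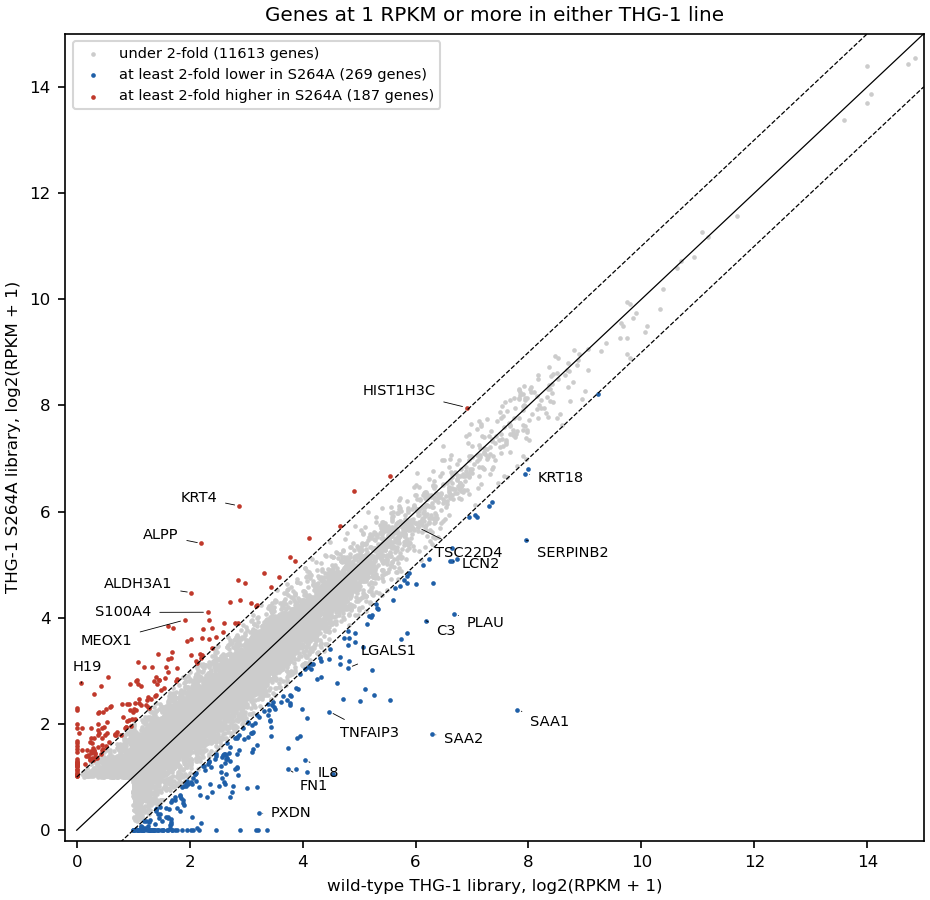
Each point is 1 of the 12069 genes, with its log2(RPKM + 1) in the wild-type THG-1 library on the x axis and in the S264A library on the y axis; the solid line marks equality and the dashed lines the 2-fold rule. The 269 lower genes (blue) include SAA1, PLAU and SERPINB2 far from the line, and the 187 higher genes (red) include KRT4 and ALPP.

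The transcripts furthest below wild type included those of acute phase, antimicrobial and cornified proteins. SAA1, which encodes the acute phase protein serum amyloid A1, stood at 223 RPKM with wild type, 3.82 RPKM with S264A and 0.122 RPKM with empty vector. It was high in the wild-type library alone, and S264A was 58.2-fold lower (42.8 to 81.4). SAA2, its close copy, stood at 77.0, 2.50 and 0.140 RPKM in the same order, a log2 ratio of -4.48. Reads of such near-identical genes can be split or lost in counting, so that each of their values is uncertain. PI3, which encodes the elastase inhibitor elafin, stood at 45.9 RPKM with wild type, 4.45 RPKM with S264A and 0.270 RPKM with empty vector. S264A lay between the other libraries, 10.3-fold below wild type (7.30 to 15).

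BASP1, which encodes a membrane-associated growth cone protein, stood at 22.1 RPKM with wild type, 1.07 RPKM with S264A and 3.50 RPKM with empty vector. S264A was lowest of the 3 libraries, 20.7-fold below wild type (14.5 to 30.5). The same order was seen for FN1, which encodes the matrix protein fibronectin, at 12.3, 1.23 and 7.92 RPKM, a 9.99-fold difference between both forms (8.86 to 11.3). AMOT, which encodes the YAP-binding protein angiomotin, followed it with 8.14, 0.747 and 1.80 RPKM, a 10.9-fold difference (8.76 to 13.7). For these 3 genes the S264A level was thus below that of the line without added THG-1, whereas for SAA1 and PI3 it was above. PXDN, which encodes the collagen IV cross-linking enzyme peroxidasin, stood at 8.32 RPKM with wild type and 0.247 RPKM with S264A, against 0.0249 RPKM with empty vector. It was 33.7-fold lower in S264A (24.5 to 47.6) and near 0 without added THG-1.

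Several genes had no read at all in S264A. OLFM4, which encodes the secreted glycoprotein olfactomedin 4, had 237 reads (6.42 RPKM) with wild type, 0 with S264A and 3 with empty vector, and was at least 87.0-fold lower in S264A against a floor of 3 reads. MIR143HG, the host transcript of miR-143, had 1870 reads with wild type, 0 with S264A and 5992 with empty vector, and was at least 686-fold lower. It was thus present in both other lines, at 8.28 and 10.5 RPKM. TIMM23B (324 reads against 0) and CXorf49B (224 reads against 0) have near-identical copies in the genome, which makes their values uncertain. CXorf49, the copy of CXorf49B, went the other way, from 10 reads with wild type to 65 with S264A (0.416 and 2.45 RPKM), and was counted as higher. In all, 47 genes that entered were at 0 in S264A and 31 were at 0 in wild type. Of the 20 lowest genes AC099522.1 (a pseudogene) and MT-TV (a mitochondrial tRNA) were neither protein-coding nor long noncoding.

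On the higher side, KRT4 and ALPP lay furthest from wild type. KRT4, which encodes a keratin of mucosal epithelia, stood at 6.31 RPKM with wild type, 68.0 RPKM with S264A and 4.0 RPKM with empty vector. S264A alone was high, 10.8-fold above wild type (9.52 to 12.3). ALPP, which encodes placental alkaline phosphatase, stood at 3.62 RPKM with wild type, 41.3 RPKM with S264A and 14.7 RPKM with empty vector. Here wild type was the lowest library and S264A the highest, a difference of 11.4-fold (9.60 to 13.6). ALDH3A1, which encodes an aldehyde dehydrogenase of stratified epithelia, had the same order at 3.09, 21.2 and 9.67 RPKM and was 6.88-fold higher in S264A (5.81 to 8.19). MEOX1, which encodes a homeodomain transcription factor, stood at 2.76, 14.5 and 0.542 RPKM and was 5.28-fold higher (4.24 to 6.63). It was higher in both THG-1 lines than with empty vector.

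Some higher genes were low in wild type alone, and others high in S264A alone. H19, a long noncoding RNA of an imprinted locus, had 2 reads (0.0559 RPKM) with wild type, 229 reads (5.81 RPKM) with S264A and 14.3 RPKM with empty vector, a ratio of 104 with a counting interval of 28.5 to 864. PTPRZ1, which encodes a receptor tyrosine phosphatase, stood at 0.238, 4.93 and 5.49 RPKM with wild type, S264A and empty vector. S264A and empty vector were close together, and S264A was 20.7-fold above wild type (14.4 to 31.0). SH3BGRL, which encodes a small protein of the thioredoxin fold, followed the same order at 0.341, 5.54 and 6.36 RPKM, on 10 reads with wild type. FGFR3, which encodes a fibroblast growth factor receptor of the epidermis, was also lowest with wild type, at 1.71, 8.98 and 7.42 RPKM, and was 5.27-fold above wild type in S264A (4.28 to 6.54). PHGR1 and ESPN were instead low with empty vector too. PHGR1 had 0 reads with wild type, 50 with S264A and 2 with empty vector, at least 15.1-fold higher when 3 reads are taken for the 0. ESPN, which encodes the actin-bundling protein espin, stood at 1.13, 8.04 and 1.63 RPKM, a ratio of 7.13 (5.88 to 8.71). The remaining genes among the 20 highest were HERC5, DDX60, CEACAM5 and LGALS7B, taken up with their families below, DISP2, NGEF and LYNX1, and LA16c-380H5.4, THAP5P1 and RNU6-1161P, which were not in the annotation, a pseudogene and a small RNA gene. PLCG2, LYPD2 and SPON2 follow among protein-coding genes.

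**Figure D2:**
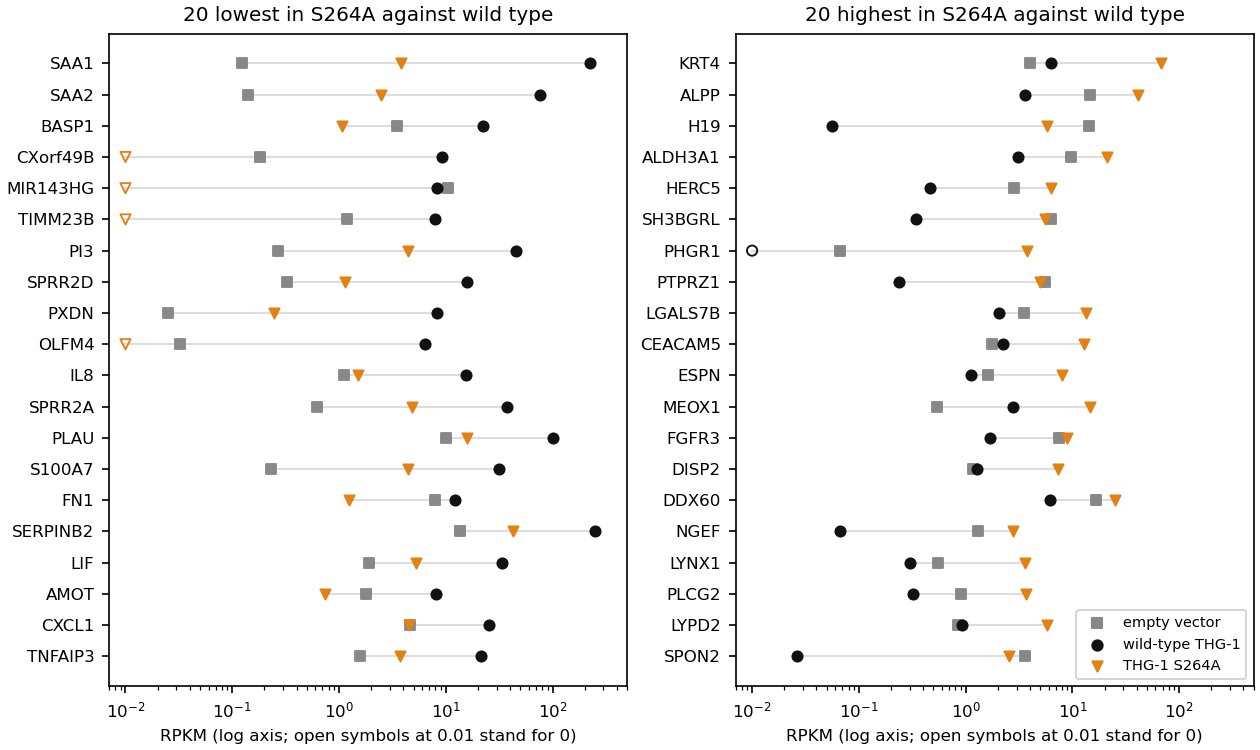
RPKM on a log axis in the empty-vector (squares), wild-type THG-1 (circles) and S264A (triangles) libraries for the 20 protein-coding or long noncoding genes with the lowest (left) and highest (right) log2 ratio of S264A to wild type; open symbols stand for 0. On the left S264A lies between empty vector and wild type for SAA1 and PI3 and below both for BASP1 and FN1, and on the right ALPP is highest with S264A.

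The NF-kB and IL-1 axis was followed by role, from ligand to target. IL1A, which encodes interleukin-1 alpha, stood at 12.3 RPKM with wild type, 1.91 RPKM with S264A and 0.485 RPKM with empty vector. IL1B, which encodes interleukin-1 beta, stood at 14.8, 3.87 and 1.39 RPKM in the same order. Both ligands were highest with wild type and intermediate with S264A, which was 6.45-fold (4.86 to 8.70) and 3.83-fold (3.22 to 4.58) lower. IL18, the other ligand that reached 1 RPKM, was at 18.5 RPKM with wild type and 20.3 RPKM with S264A. Of 6 receptor genes 5 reached 1 RPKM, all 5 with log2 ratios below 0, and IL1RL1, the receptor of interleukin-33, was the only one past the 2-fold rule at 3.32 and 1.12 RPKM (-1.03, and -0.97 with equal-sum scaling). The signalling receptor IL1R1 was at 3.74 and 2.09 RPKM (-0.61). The receptor antagonist IL1RN was at 19.8 and 17.1 RPKM (-0.20). Over the IL-1 family 12 of 20 genes entered, 3 were lower and 0 higher, and the median was -0.49, or -0.16 over all 20 genes.

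The transducers of the IL-1 receptor differed little. Of 19 genes 17 entered, none passed the 2-fold rule, and the median was -0.05 (0.01 with equal-sum scaling). MYD88, the receptor adaptor, was at 7.19 RPKM with wild type and 7.08 RPKM with S264A. IRAK1, the most abundant receptor kinase, was at 62.8 and 54.4 RPKM. The member nearest to the rule was at -0.96, namely IRAK2, an inducible kinase of the pathway, at 1.78 and 0.430 RPKM. The 3 IKK genes lay between -0.26 and -0.10. Among 5 NF-kB subunits RELA (12 and 10.9 RPKM), REL (3.11 and 3.50 RPKM) and NFKB1 (8.36 and 10.3 RPKM) stayed within the rule. The subunits of the noncanonical arm did not. NFKB2 stood at 24.2 RPKM with wild type, 7.72 RPKM with S264A and 4.92 RPKM with empty vector, and RELB at 5.54, 1.95 and 1.02 RPKM. They were 3.14-fold (2.83 to 3.48) and 2.84-fold (2.19 to 3.70) lower in S264A.

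Among the target genes of NF-kB the secreted products lay furthest below wild type. Of 38 listed targets 28 entered, 14 were lower, 0 were higher, and the median log2 ratio was -0.98 against 0.02 over all genes. It was -0.50 over all 38 targets, and among the 24 at 1 RPKM or more in both libraries 11 were lower. By role, 8 of 9 secreted products were lower (median -2.20), 4 of 9 inhibitors and regulators (-0.50), 2 of 4 subunits, and 0 of 6 genes of adhesion, survival and other roles (-0.48). Of 16 listed secreted products 7 were below 1 RPKM in both libraries, and the median over all 16 was -0.95. Some of the 9 entered through wild type alone, and of the 6 at 1 RPKM or more in both libraries 6 were lower. Over all 10 listed inhibitors and regulators the median was -0.44. The target list also holds genes named in the IL-1 and NF-kB sets above, so these counts are not independent of one another. It was chosen with earlier results of these data known, and the counts are descriptive. The median stayed between -1.44 and -0.41 in all 10 alternative settings.

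IL8 (CXCL8), which encodes a neutrophil chemokine, stood at 15.5 RPKM with wild type, 1.51 RPKM with S264A and 1.11 RPKM with empty vector. CXCL1, another neutrophil chemokine gene, stood at 25.3, 4.57 and 4.67 RPKM. For both chemokines S264A was near the empty vector, 10.3-fold (7.66 to 14.2) and 5.55-fold (4.37 to 7.11) below wild type. LIF, which encodes a cytokine of the interleukin-6 family, stood at 33.4, 5.32 and 1.91 RPKM. PLAU, which encodes urokinase, stood at 102, 15.7 and 10.1 RPKM. These were 6.28-fold (5.54 to 7.13) and 6.48-fold (5.96 to 7.05) lower, with S264A above the empty vector in both. IL23A and CXCL3 were lower from levels of 2.34 and 1.34 RPKM. CSF1, the gene of a macrophage growth factor outside this list, was lower at 3.30, 0.895 and 3.80 RPKM.

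The inhibitors split. TNFAIP3, which encodes the ubiquitin-editing inhibitor A20, stood at 21.2 RPKM with wild type, 3.71 RPKM with S264A and 1.57 RPKM with empty vector, a 5.73-fold difference (5.02 to 6.57). TNIP1, which encodes a partner of A20, stood at 32.5, 9.88 and 8.73 RPKM. NFKBIE, which encodes IkB-epsilon, stood at 5.35, 1.53 and 1.57 RPKM. S264A was near the empty-vector level in TNIP1 and NFKBIE and above it in TNFAIP3. NFKBIA, which encodes IkB-alpha, was at 19.8, 13.7 and 8.07 RPKM, within the rule at -0.50. NFKBIZ was at 5.40 and 5.07 RPKM (-0.08), and TNFAIP2, a tumour necrosis factor-induced gene, at 25.7 and 34.4 RPKM (0.41). ICAM1, which encodes an adhesion molecule for leukocytes, was at 5.95 and 2.73 RPKM (-0.90), and the mitochondrial dismutase gene SOD2 at 4.14 and 2.61 RPKM (-0.51). The apoptosis inhibitor gene BIRC3 passed the rule at 4.95, 0.972 and 0.713 RPKM.

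**Figure D3:**
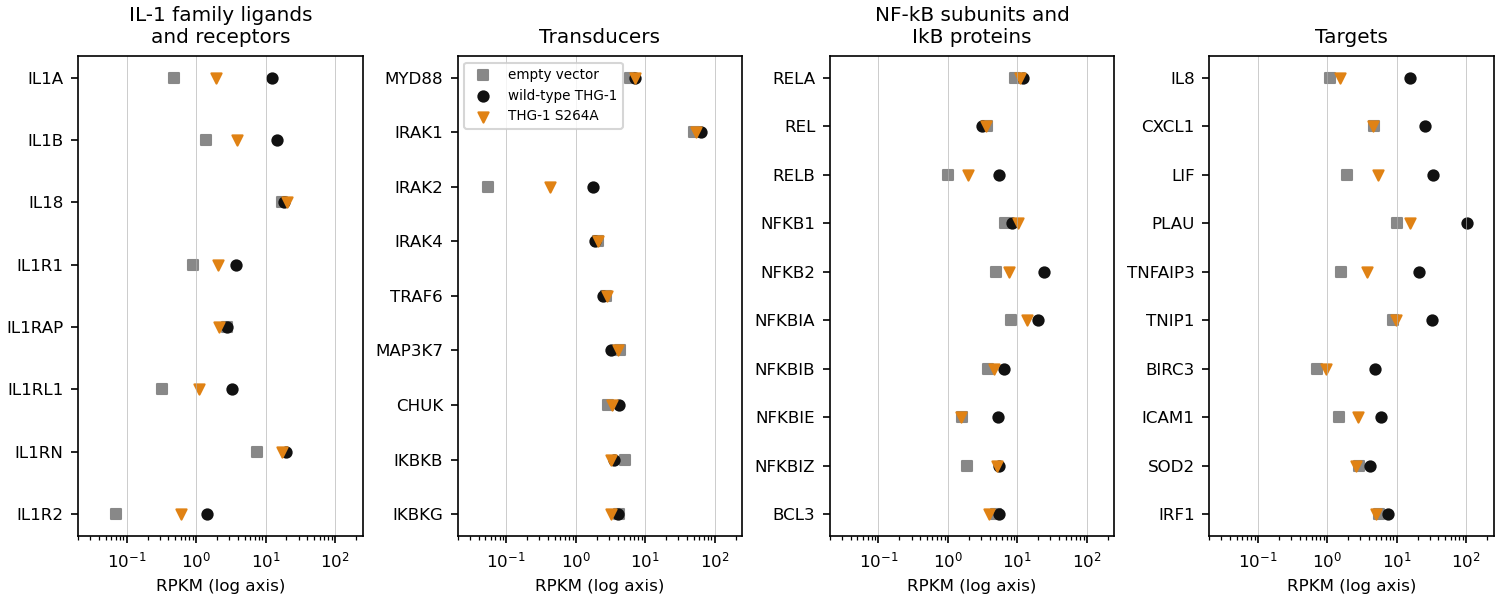
RPKM on a log axis in the empty-vector (squares), wild-type THG-1 (circles) and S264A (triangles) libraries for genes of the IL-1 and NF-kB axis, grouped by role. The 3 symbols nearly coincide for transducers such as MYD88 and TRAF6, while IL8, CXCL1 and TNFAIP3 are high with wild type alone.

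Promoter sequence was examined for these genes because NF-kB binds a short DNA motif. The 250 bases before the annotated start were taken from RefSeq (GRCh38.p14), which held a promoter for 151 of the 269 lower and 92 of the 187 higher genes by symbol. The sequences of 4 lower genes follow, IL8, CXCL1, TNFAIP3 and the siderophore-binding gene LCN2, with capitals at each match to GGANTTTCC or to the NF-kB consensus (kB consensus), on either strand, where both motifs may overlap. All lie on the plus strand, at chr4:73740319-73740568 (IL8), chr4:73869143-73869392 (CXCL1), chr6:137867009-137867258 (TNFAIP3) and chr9:128149203-128149452 (LCN2), and read 5′ to 3′ towards the start.
IL8: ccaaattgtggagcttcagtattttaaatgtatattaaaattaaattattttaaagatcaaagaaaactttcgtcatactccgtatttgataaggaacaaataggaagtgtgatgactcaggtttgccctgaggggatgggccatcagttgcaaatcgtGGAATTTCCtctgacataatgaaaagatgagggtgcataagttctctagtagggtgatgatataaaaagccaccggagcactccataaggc
CXCL1: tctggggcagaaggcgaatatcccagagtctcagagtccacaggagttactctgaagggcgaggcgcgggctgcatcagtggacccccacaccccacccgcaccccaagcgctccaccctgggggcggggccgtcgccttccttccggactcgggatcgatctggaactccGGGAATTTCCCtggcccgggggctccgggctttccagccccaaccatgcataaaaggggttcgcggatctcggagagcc
TNFAIP3: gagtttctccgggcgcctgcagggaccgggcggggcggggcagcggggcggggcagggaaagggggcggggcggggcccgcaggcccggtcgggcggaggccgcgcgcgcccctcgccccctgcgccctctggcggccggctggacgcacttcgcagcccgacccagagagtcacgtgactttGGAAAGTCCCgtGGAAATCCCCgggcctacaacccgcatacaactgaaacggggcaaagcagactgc
LCN2: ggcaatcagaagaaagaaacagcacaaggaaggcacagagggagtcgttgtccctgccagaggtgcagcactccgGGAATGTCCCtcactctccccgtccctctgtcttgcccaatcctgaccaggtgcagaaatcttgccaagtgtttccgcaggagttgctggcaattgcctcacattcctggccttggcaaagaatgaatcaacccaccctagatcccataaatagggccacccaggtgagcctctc

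Counted from the first base before the start as -1, the match began at -91 in IL8 and at -79 in CXCL1. TNFAIP3 held matches at -67 and -55, and LCN2 at -175. All 4 promoters shown thus held a match, and they are not typical of the lower genes. The kB consensus was in 32 of 151 lower promoters and in 5 of 11 promoters of lower NF-kB targets. GGANTTTCC was found in 7 of 151 lower promoters (4.64%), 0 of 92 higher promoters and 1.40% of the 8869 promoters of all entered genes, and in 1.47% of all 27305 promoters of the table. The kB consensus was found in 21.2% of lower, 12% of higher and 11.8% of entered promoters. TGANTCA, the letters of the AP-1 motif, was found in 13.2% of lower, 6.52% of higher and 4.0% of entered promoters. The antioxidant element letters TGACNNNGC stood at 12.6%, 12% and 12.3%. Other letters differed too, with TATAAA in 13.2% of lower, 8.70% of higher and 5.46% of entered promoters, and the interferon-stimulated response element (ISRE) in 3.97%, 2.17% and 2.33%. Among NF-kB targets GGANTTTCC was in 9 of 24 promoters of entered genes and 4 of 11 of the lower ones. These targets were listed for known regulation by the factor, with earlier results of these data known. All motif counts are matches of letters and not measured binding.

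Most antimicrobial and acute phase genes that were expressed were lower in S264A. Of 24 listed genes 12 entered, 9 were lower, 0 were higher, and the median was -1.57, or -0.38 over all 24. With equal-sum scaling 7 were lower and 1 higher, since S100A9 and SLPI moved to -0.93 and -0.99 and PGLYRP3 to 1.05. Among the 9 genes at 1 RPKM or more in both libraries 8 were lower. LCN2, which encodes lipocalin 2, stood at 96.2 RPKM with wild type, 32.5 RPKM with S264A and 1.59 RPKM with empty vector. S264A was 2.96-fold below wild type (2.75 to 3.20) and remained far above the empty vector. S100A8 and S100A9, which encode the subunits of calprotectin, stood at 14.0 and 123 RPKM with wild type, 2.34 and 58.8 RPKM with S264A, and 0.186 and 4.16 RPKM with empty vector. S100A7, which encodes psoriasin and has close copies, was at 31.5, 4.39 and 0.233 RPKM. SLPI, an antiprotease gene, was at 131, 60.4 and 25.1 RPKM. PGLYRP3, which encodes a peptidoglycan recognition protein, was the member above 0, at 0.402 and 1.76 RPKM (0.98). SAA4, of the serum amyloid A family, was at 2.05 RPKM (19 reads) with wild type and at 0 in both other libraries.

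Of 16 complement genes 9 entered, 2 were lower and 1 higher, and the median was -0.24, or -0.02 over all 16. Among the 6 at 1 RPKM or more in both libraries 1 was lower, C3, and 0 were higher. C3, the central component, stood at 71.7 RPKM with wild type, 14.4 RPKM with S264A and 1.42 RPKM with empty vector, 4.98-fold lower in S264A (4.72 to 5.25). CFB, which encodes factor B of the alternative pathway, stood at 5.85, 0.771 and 0.393 RPKM, 7.59-fold lower (5.92 to 9.85). C5, of the terminal pathway, was instead at 0.241, 2.32 and 1.09 RPKM, 9.63-fold higher (6.08 to 16.1). None of the 5 membrane or fluid regulators that entered passed the rule, with CD59 at 18.7 and 16.7 RPKM.

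Interferon-stimulated genes had log2 ratios mostly below 0 (33 of 38 that entered, or 32 with equal-sum or upper-quartile scaling). By the 2-fold rule 13 were lower and 2 higher, and the median was -0.69, or -0.63 over all 40 listed genes. The count of lower genes was 10 with equal-sum scaling and 15 with median-ratio scaling. IFI6, which encodes a mitochondrial antiviral protein, stood at 36.5 RPKM with wild type, 7.09 RPKM with S264A and 5.73 RPKM with empty vector. IFITM1, a gene for an antiviral membrane protein, stood at 99.7, 38.6 and 47.9 RPKM, and the oligoadenylate synthetase gene OAS2 at 14.2, 5.35 and 1.09 RPKM. All 3 genes were highest with wild type. The regulators IRF7 (13.7 and 5.40 RPKM) and IRF9 (8.36 and 3.38 RPKM) were lower as well. The other lower effectors were OAS3, MX1, IFIT3, IFI27, RSAD2, XAF1, SAMD9L and CMPK2, between -1.69 (IFI27) and -1.04 (OAS3), of which OAS3, MX1 and IFIT3 were within the rule with equal-sum scaling. Among the 33 genes at 1 RPKM or more in both libraries 9 were lower and 1 higher. DDX60 and HERC5 went the other way. DDX60, which encodes an antiviral helicase, stood at 6.22, 25.1 and 16.6 RPKM, and HERC5, the ligase for ISG15, at 0.461, 6.37 and 2.86 RPKM. In both, wild type was the lowest of the 3 libraries, and S264A was 4.03-fold (3.66 to 4.43) and 13.8-fold (9.42 to 21.0) above it. OASL, within the rule, was also lowest with wild type, at 16.5, 27.4 and 34.0 RPKM for wild type, S264A and empty vector (0.70). The 15 HLA class I and loading genes that entered had a median of -0.46 and none passed the rule, with HLA-B at 61.6 and 37.7 RPKM (-0.69) and B2M at 70.3 and 80.7 RPKM (0.20).

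Of the genes of plasminogen activation, PLAU, PLAUR, PLAT and SERPINB2 were lower in S264A (PLAT not with equal-sum scaling, where it stood at -0.94), and 0 were higher. Beside PLAU, its receptor gene PLAUR stood at 12.7 RPKM with wild type, 4.10 RPKM with S264A and 2.97 RPKM with empty vector. The tissue activator gene PLAT stood at 8.16, 3.49 and 6.41 RPKM. SERPINB2, which encodes plasminogen activator inhibitor 2, was among the most abundant lower genes at 248, 43.1 and 13.7 RPKM, and was 5.76-fold lower (5.46 to 6.07). SERPINE2, another inhibitor gene, was at 2.51 and 2.50 RPKM (0.00).

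Metalloproteinases did not move as a group. Of 14 genes that entered 2 were lower and 3 higher, with a median of 0.08. The membrane protease genes ADAM19 (29.3 RPKM with wild type, 10.7 with S264A, 2.27 with empty vector) and ADAM8 (56.7, 24 and 10.9 RPKM) were lower. The gelatinase gene MMP2 (3.06, 8.82 and 4.53 RPKM), MMP28 (9.80, 23 and 12.2 RPKM) and the inhibitor gene TIMP2 (3.54, 8.96 and 5.08 RPKM) were higher. MMP2, MMP28 and TIMP2 were lowest with wild type, where ADAM8 and ADAM19 were highest.

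Most genes of the mesenchymal list that were expressed were lower, and S100A4 was higher. Of 28 listed genes 12 entered, 8 were lower and 1 higher, and the median was -1.11, or -0.10 over all 28, since 16 were below 1 RPKM in both libraries. Among the 9 at 1 RPKM or more in both, 5 were lower and 1 higher. Beside FN1, LOXL2, which encodes a collagen cross-linking enzyme, stood at 7.68 RPKM with wild type, 1.89 RPKM with S264A and 1.95 RPKM with empty vector. SPARC, which encodes a collagen-binding matrix protein, stood at 4.93, 1.61 and 0.00646 RPKM. CDH2, which encodes N-cadherin, had 92 reads (1.46 RPKM) with wild type and 10 reads (0.144 RPKM) with S264A, against 2.19 RPKM with empty vector. CALD1, ITGA5, MYL9 and LGALS1 were lower too, and in LGALS1, which encodes galectin-1, the empty vector was highest (50.2 RPKM against 27.1 with wild type and 7.33 with S264A). S100A4, which encodes a calcium-binding protein of motile cells, stood at 3.98, 16.2 and 7.67 RPKM, 4.07-fold higher in S264A (3.00 to 5.61). SNAI2, the only transcription factor gene of the list that entered, was at 4.23 and 6.56 RPKM (0.53). The fibroblast markers COL1A1 and PDGFRA were below 1 RPKM in both libraries.

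Within the epidermal gene families, members went in opposite directions. Of the S100 family only genes named S100A with a number were counted. Of these, 3 of 12 that entered were lower (S100A7, S100A8 and S100A9, the last of them not with equal-sum scaling). In the same count 1 was higher (S100A4), while S100A2, S100A10 and S100A11 lay within the rule. In the small proline-rich family, whose products are cross-linked into the cornified envelope, 4 of 7 were lower and 1 higher. SPRR2A stood at 37.2 RPKM with wild type, 4.83 RPKM with S264A and 0.616 RPKM with empty vector, and SPRR2D at 15.9, 1.15 and 0.325 RPKM. SPRR2E (3.53 and 0.583 RPKM) and SPRR2F (1.27 and 0 RPKM, on 11 reads and 0) were the other lower members. SPRR1A was at 3.64, 11.4 and 1.16 RPKM, highest with S264A, and SPRR1B at 23.7 and 26.2 RPKM (0.14). The SPRR2 genes are near-identical copies, so that the level of each is uncertain. Other envelope precursors were close, with IVL at 11.5 and 15.3 RPKM (0.38) and PPL at 63.8 and 65.2 RPKM (0.03). PADI2, which encodes a deiminase of arginine residues, stood at 2.22, 9.21 and 0.0364 RPKM, 4.14-fold higher in S264A (3.50 to 4.92). Over the whole cornified list 18 of 40 genes entered, 4 were lower and 2 higher, with a median of 0.09, and among the 15 at 1 RPKM or more in both libraries 2 were lower and 2 higher.

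Keratin genes were abundant and mostly near equality, with 19 of 22 listed genes entered, 1 lower, 2 higher (3 with equal-sum scaling) and a median of -0.06 (0.05 with equal-sum scaling). KRT18, a keratin of simple epithelia, stood at 246 RPKM with wild type, 104 RPKM with S264A and 101 RPKM with empty vector. S264A was close to the empty vector here, 2.37-fold below wild type (2.29 to 2.45), and all 4 keratins of simple epithelia had log2 ratios below 0 (median -0.77). KRT81, a hair keratin outside the list and chosen after its value was seen, was also lower (-1.66). Beside KRT4, the suprabasal keratin KRT1 was higher, from 2 reads with wild type to 65 with S264A (0.0631 and 1.86 RPKM). The suprabasal KRT10, its usual partner, did not go with it (-0.84). The basal keratins KRT5 and KRT14 were at 0.45 and 0.41 on the log2 scale.

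Of the kallikreins, the proteases of desquamation, 8 of 13 listed genes entered, 1 was lower and 2 were higher. Both higher genes were below 1 RPKM with wild type, and among the 6 at 1 RPKM or more in both libraries 1 was lower and 0 higher. KLK7 stood at 16.8 RPKM with wild type, 7.21 RPKM with S264A and 1.85 RPKM with empty vector. KLK11 (0.757, 3.37 and 1.11 RPKM) and KLK13 (0.391, 2.84 and 0.373 RPKM) were higher, while the most abundant member, KLK5, was at 71.4 and 49.2 RPKM (-0.53). Clade B serpins included 3 lower genes of 9 (SERPINB2, SERPINB1 and SERPINB7; 2 with equal-sum scaling) and none higher. SERPINB1 stood at 36.0, 15.1 and 10.4 RPKM, and SERPINB3, an inhibitor of squamous epithelia, at 1.72 and 3.09 RPKM (0.59).

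**Figure D4:**
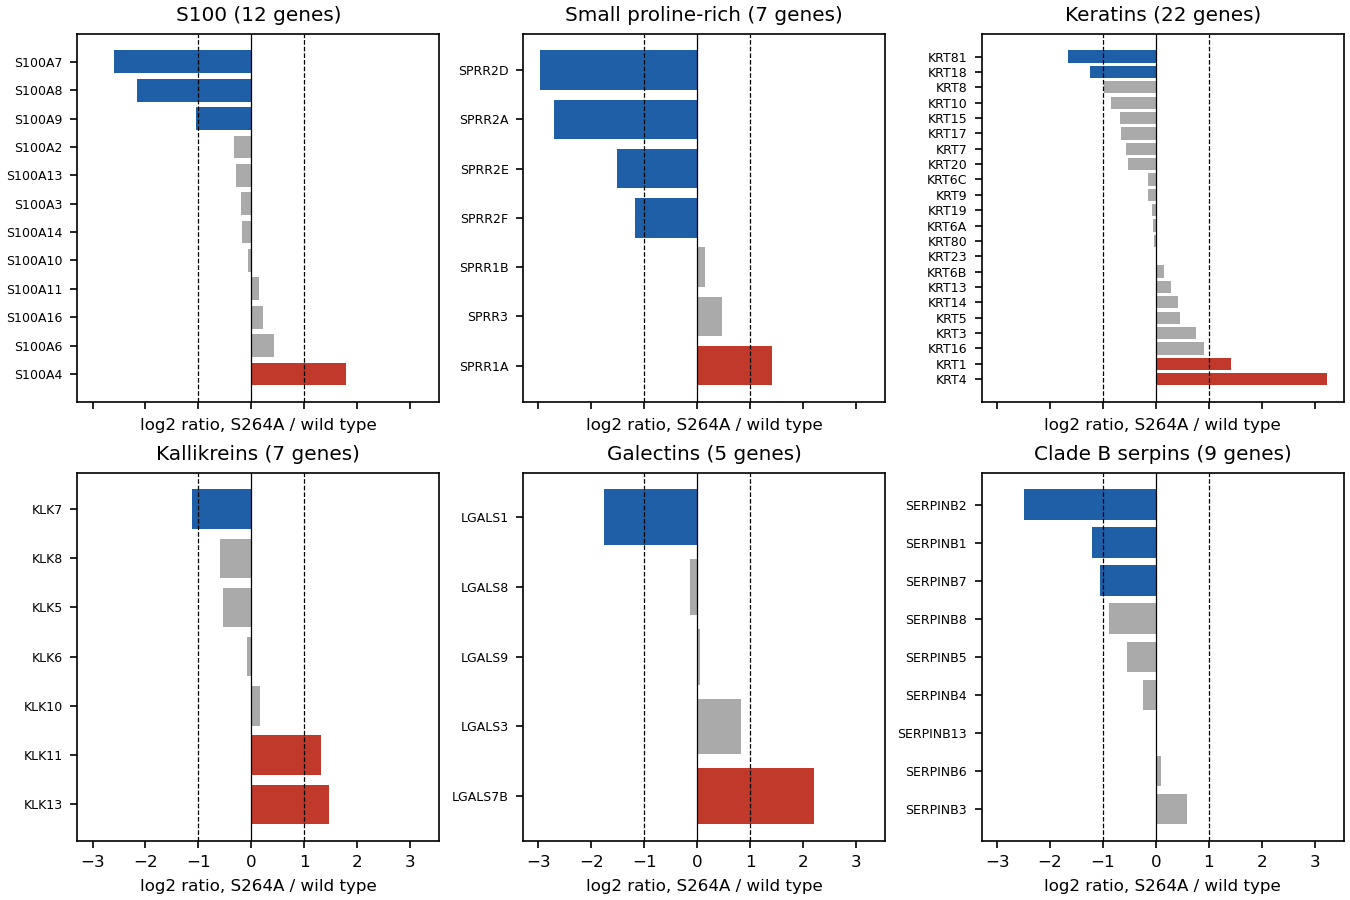
Log2 ratio of RPKM + 1 between S264A and wild type for protein-coding genes of 6 families, picked by symbol, that reached 1 RPKM in either library. Of the S100 family only genes named S100A with a number are shown. Dashed lines mark the 2-fold rule. Blue and red bars mark genes past it: S100A7 and S100A4, SPRR2D and SPRR1A, KRT81 and KRT4, KLK7 and KLK13, and LGALS1 and LGALS7B stand at opposite ends of their families, while no clade B serpin is red.

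In the list of mucins and surface glycoproteins, which also holds galectins, several genes were higher in S264A. Of 21 listed genes 13 entered, 6 were higher and 1 lower (LGALS1), with a median of 0.83, or 0.35 over all 21. The roles differed. Higher were 1 of 3 membrane mucins, 2 of 3 CEACAM genes, 2 of 2 alkaline phosphatase genes and 1 of 5 galectins, whose median was 0.04. Among the 12 at 1 RPKM or more in both libraries 5 were higher. CEACAM5, which encodes carcinoembryonic antigen, stood at 2.25 RPKM with wild type, 13.0 RPKM with S264A and 1.78 RPKM with empty vector. It was 5.76-fold higher in S264A (4.64 to 7.22), which stood apart from both other lines. Its neighbour in the family, CEACAM6, stood at 3.06, 11.2 and 4.45 RPKM. MUC4, a membrane mucin gene, stood at 1.98, 7.39 and 3.75 RPKM, whereas MUC16 was at 16.3 and 27.9 RPKM (0.74) and MUC1 at 10.5 and 5.41 RPKM (-0.84). ALPPL2, a close copy of ALPP, was at 0.504, 4.0 and 1.43 RPKM. LGALS7B, one of a pair of near-identical galectin-7 genes, was at 2.07, 13.3 and 3.49 RPKM, on 17 reads with wild type and 120 with S264A.

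In the NRF2 and aldo-keto reductase list 31 genes entered, 4 were higher, 1 was lower and the median was -0.02 (0.09 with equal-sum scaling). Beside ALDH3A1, AKR1C3, which encodes a steroid-reducing enzyme, stood at 1.52 RPKM with wild type, 7.46 RPKM with S264A and 1.44 RPKM with empty vector. NQO1, the quinone reductase gene, stood at 24.3, 52.4 and 17.8 RPKM, 2.16-fold higher (2.00 to 2.32). AKR1C1, which is nearly identical in sequence to its paralogs, was at 1.19 and 4.13 RPKM. ALDH1A3, which encodes a retinoic acid-forming dehydrogenase, was the lower member, at 162, 71.8 and 51.8 RPKM. The classical NRF2 targets of glutathione metabolism did not pass the rule, with GSTP1 at 239 and 241 RPKM. All 6 genes of the aryl hydrocarbon receptor list that entered had ratios above 0 (median 0.69; 5 of 6 with median-ratio scaling), 2 of them past the rule, and both, NQO1 and ALDH3A1, are in the NRF2 list as well. CYP1B1 was at 2.36 and 5.04 RPKM (0.84).

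In the Notch list 12 genes entered, 2 were higher, 0 lower and the median was 0.33, or 0.18 over all 16 listed genes. Both higher genes were below 1 RPKM with wild type, and 0 of the 10 genes at 1 RPKM or more in both libraries passed the rule. NOTCH3 stood at 0.893 RPKM with wild type, 4.21 RPKM with S264A and 3.35 RPKM with empty vector, 4.72-fold higher (3.81 to 5.91). HES5, a target gene of the pathway, had 5 reads with wild type and 55 with S264A (0.301 and 3.00 RPKM). The receptor gene NOTCH1 (17.7 and 23.4 RPKM, 0.38) and the ligand gene JAG2 (10.1 and 16.8 RPKM, 0.68) were within the rule, as was the target HES1 (20.6 and 18.8 RPKM, -0.13).

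Growth factor signalling held few members past the rule. None of the 16 genes of the RAS, RAF, MEK and ERK cascade passed it (median 0.03). In the 34 output genes of RAS-MAPK signalling that entered 2 were lower and 0 higher, with a median of -0.23. DUSP5, which encodes a nuclear ERK phosphatase, stood at 23.4 RPKM with wild type, 5.86 RPKM with S264A and 1.06 RPKM with empty vector. MAFF, a small MAF factor gene, stood at 12.6, 4.81 and 2.85 RPKM. CCND1 (119 and 103 RPKM), MYC (80.1 and 54.6 RPKM) and FOSL1 (68.4 and 57.0 RPKM) stayed within the rule. Of the EGF receptor ligands HBEGF was lower, at 7.60, 2.58 and 2.31 RPKM, and EGFR itself was at 28.6 and 28.0 RPKM.

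In the TGF-beta list of 28 entered genes, 3 were lower and 2 higher (3 with equal-sum scaling), with a median of -0.08 (0.00 with equal-sum scaling). Among the 24 at 1 RPKM or more in both libraries 3 were lower and 1 higher. FST, which encodes the activin antagonist follistatin, stood at 105 RPKM with wild type, 33.6 RPKM with S264A and 11.7 RPKM with empty vector. THBS1 (136, 59.0 and 70.6 RPKM) and TGFBI (51.6, 23.3 and 49.0 RPKM), which encode secreted matrix proteins, were lowest with S264A. The ligand genes BMP4 (0.459, 2.55 and 0.769 RPKM) and BMP7 (1.38, 4.48 and 2.48 RPKM) were highest with S264A. Of the YAP and TEAD list 17 of 18 genes had ratios below 0, or 13 of 18 with equal-sum scaling, and 1 was lower by the rule, the matricellular gene CYR61 at 19.1, 6.36 and 5.87 RPKM. The list was uneven by role, where the roles overlap. All 7 target genes were below 0 (median -0.90), as were 11 of 12 pathway genes (median -0.13). AMOT (-2.39), given above, is outside this list. Of 23 epidermal transcription factor genes that entered 2 were lower and 1 higher, with a median of -0.10 (0.00 with equal-sum scaling). The lower ones were SOX4 (7.49, 2.56 and 4.39 RPKM) and CEBPA (11.2, 4.36 and 3.07 RPKM). The higher one was MEOX1 (2.05), and TP63 was at 20.1 and 17.4 RPKM.

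**Figure D5:**
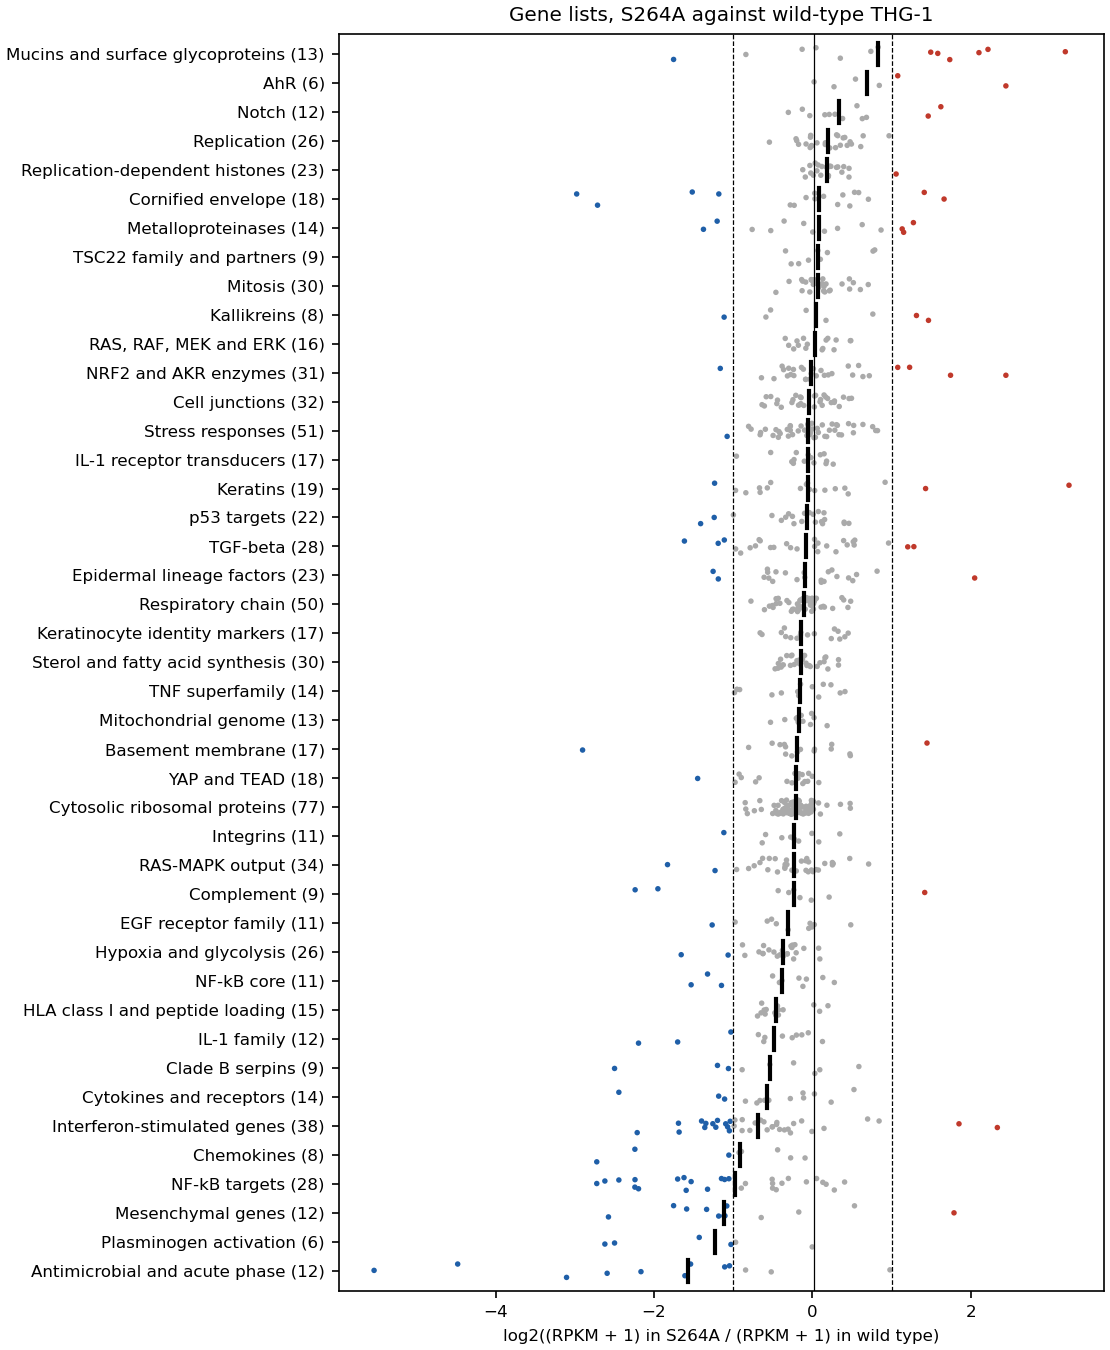
Log2 ratio of RPKM + 1 between S264A and wild type for the genes of each list with at least 5 genes at 1 RPKM or more (number in parentheses); the black bar is the median of the list, the thin line the median of all 12069 genes (0.02) and the dashed lines the 2-fold rule. Lists are ordered by their median, from mucins and surface glycoproteins, galectins included (0.83), to antimicrobial and acute phase genes (-1.57).

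Core cell functions were close between both forms. Neither the 26 replication genes (median 0.19) nor the 30 mitosis genes (0.07) that entered held a member past the rule, apart from GINS2 with equal-sum scaling (1.07), with PCNA at 96.3 and 126 RPKM and MKI67 at 68.4 and 55.6 RPKM. HIST1H3C, at 119 and 248 RPKM, was the 1 higher gene of 23 replication-dependent histone genes. No member passed the rule among the 32 genes of cell junctions, the 30 of sterol and fatty acid synthesis, the 50 of the respiratory chain and the 77 of the cytosolic ribosome. In the basement membrane list 17 genes entered, 1 was lower (PXDN, given above) and 1 higher. The higher gene was NID1, which encodes nidogen, at 0.308 and 2.57 RPKM. Among the 15 at 1 RPKM or more in both libraries 0 passed the rule. Of 51 stress response genes that entered 1 was lower and 0 higher. It was SDF2L1, an ER chaperone partner gene, at 21.4 and 9.60 RPKM (-0.97 with equal-sum scaling). The median ratio also differed with level: genes above 100 RPKM had a median of -0.12 (236 genes) and genes under 2 RPKM one of 0.11 (2757 genes). The ribosomal median was -0.21, or -0.10 with equal-sum scaling. All 14 glycolytic enzyme genes had ratios below 0 (median -0.27), also under the 3 scalings, while in the authors' normalised columns 13 did and GAPDH was at 0. GAPDH, which encodes a glycolytic dehydrogenase, stood at 619 RPKM with wild type and 517 RPKM with S264A. PFKP, which encodes a phosphofructokinase, passed the rule at 56.9 and 26.7 RPKM and no longer did with equal-sum scaling (-0.95). Among hypoxia targets CA9, which encodes carbonic anhydrase 9, was lower at 9.83 RPKM with wild type, 2.43 RPKM with S264A and 7.75 RPKM with empty vector. Of 22 p53 targets that entered 2 were lower and 0 higher, with a median of -0.07 (0.03 with equal-sum scaling). The lower ones were GDF15 (5.57 and 1.47 RPKM) and GADD45A (21.1 and 8.34 RPKM), and CDKN1A (33.9 and 16.5 RPKM) lay just inside the rule. Within the TSC22 family, TSC22D1 (5.70 and 10.6 RPKM, 0.79) and TSC22D3 (4.35 and 8.09 RPKM, 0.77) lay within the rule above 0, and the partner gene NRBP1 was at 13.6 and 11.9 RPKM.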

How the data were processed

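Per the file headers the deposited table gives, for each gene symbol and library, an expression value, which is RPKM as computed by the authors (hg19, per the submitters' processing notes; not given in the sources used here: aligner, counting program, annotation and library selection), and a normalised expression value, which served as an alternative and whose sorted values equal, within 0.1%, the mean of the sorted RPKM of the 3 libraries in 100% of rows, as quantile normalisation gives. The empty-vector column of the latter, 1 in number, was not used. Where a symbol had several rows (234 symbols), the row of highest mean was taken. Genes at 1 RPKM or more in either THG-1 library were compared by log2 of RPKM + 1, a scale that understates the difference of low genes. Reads came out whole for 25998 of 25998 rows above 0, with lengths within 1.5-fold of GENCODE release 29 for 92.3% of the entered genes, and gave the depths and the exact intervals at a confidence of 95%. They served for no test. The samples were single libraries of separate lines.

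The genes named are TSC22D4, HRAS, ACTB and GAPDH, the 20 lowest and 20 highest genes, each list member past the 2-fold rule and up to 6 others of each list by mean level or role. Members, the 47 gene lists (1046 genes, 847 entered) and rules were chosen with earlier results of these data known. Some list members are not reported here. Promoters came from RefSeq (GRCh38.p14). Symbols were matched to GENCODE release 29. Alternatives were 2 pseudocounts, 2 filters, 4 scalings, protein-coding genes only, and, added after seeing the data, at least 20 reads in either library. Scripts were tested on simulated data. Python 3.11.15, pandas 2.3.3, numpy 2.4.6, scipy 1.17.1 and matplotlib 3.10.9 were used.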

Additional observations from a re-analysis of the deposited data

How the results depend on the processing

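The 269 lower and 187 higher genes became 518 and 509 with a pseudocount of 0.1 RPKM, 63 and 26 with a pseudocount of 5 RPKM, and 149 and 71 with a filter at 5 RPKM, the first of which adds genes of few reads and the others of which drop low genes by construction. In the other 7 settings the counts stayed within 1.5-fold. Of 126 named genes past the 2-fold rule 52 stayed past it in every alternative in which they still entered. Some of them, such as H19 and MIR143HG, entered in 9 of the 10. Under the rule were 72 with a pseudocount of 5 RPKM and 11 with another scaling, and 0 had the other sign. Of 47 list medians 16 had the other sign in some alternative, including that of the immune markers, where CD68 alone entered and where the median was 0.012 with no filter. ACTB stood at -0.08 as deposited and 0.03 with equal-sum scaling, and at 0.32 in the authors' normalised columns. Of the lower genes 49 and of the higher genes 36 had fewer than 20 reads in both libraries, 4 and 0 of them protein-coding, and these differences are not firm at this depth. No paired analysis was possible because each group had 1 library and no test was run.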

Other observations

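Some genes past the 2-fold rule lay next to one another. Of 10446 pairs of neighbouring protein-coding genes, placed in RefSeq order with genes under 1 RPKM passed over, 25 pairs held 2 lower genes, 13 held 2 higher genes and 2 held 1 of each. A lower gene lay beside a gene within the rule in 338 pairs, and a higher gene in 218. The lower runs included SPRR2D, SPRR2A, SPRR2E, SPRR2F and PRR9 on chromosome 1, S100A9, S100A8 and S100A7 on the same chromosome, IL1A with IL1B on chromosome 2, CXCL1 with CXCL3 on chromosome 4, OAS3 with OAS2 on chromosome 12 and PI3 with SLPI on chromosome 20. The higher runs included ALPP with ALPPL2 on chromosome 2, CEACAM5 with CEACAM6 and KLK11 with KLK13 on chromosome 19 and CRIP2 with CRIP1 on chromosome 14. In all, 43 of 195 placed lower genes were in 18 runs and 25 of 123 placed higher genes in 12. Many of these neighbours are copies of one another, which share sequence and reads, and the part of this in the counts was not tested. Some runs hold unrelated genes, such as STC1 with ADAM28 (lower) and ANXA10 with DDX60 (higher). PRR9, CRIP1, CRIP2, STC1, ADAM28 and ANXA10 were named after their values were seen.

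A few noncoding RNAs took much of the summed RPKM. RN7SL2, the RNA of the signal recognition particle, held 9.94% of it with wild type and 8.76% with S264A. MIR3648 held 9.08% and 8.02%, MIR3687 5.50% and 4.84%, RMRP 5.80% and 5.44%, and RPPH1 4.14% and 3.88%. RN7SK, the RNA that holds the elongation factor P-TEFb inactive, went the other way, with 5.53% and 7.86%. Equal-sum scaling used the same sums, 296398 RPKM with wild type and 273611 RPKM with S264A, so that these RNAs weigh on its factor. From wild type to S264A, RN7SL2 differed by -5493 RPKM, MIR3648 by -4970 RPKM and RN7SK by 5115 RPKM. Mitochondrially encoded genes held 6.85% and 6.79%. Among genes that entered, 26 of 131 of small RNA and other noncoding types were lower and 13 higher, against 198 and 125 of 10586 protein-coding genes, and 22 and 10 of those had fewer than 20 reads in both libraries.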
